A study of Drosophila melanogaster with 27 samples.

Results

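The core of the Toll pathway, one of the fly's main defences against fungi and Gram-positive bacteria, was followed in ageing female heads through 10 genes: GNBP3, SPE, spz, Tl, Myd88, tub, pll, cact, dl and Dif. They were picked by gene symbol for their roles in the pathway, with earlier results of these data known, and all 10 were found among the 11923 genes of the table. RNA was measured by sequencing of polyadenylated transcripts from heads of Drosophila melanogaster, with 20 female heads pooled in each sample. The libraries used were 3 from 3-day-old and 3 from 50-day-old flies of the wild-type strain Oregon-R. Flies were kept at 25 °C on standard food, with no transgene or drug in either age group. Of the 27 samples in 9 groups of the series, the other 21 (w1118 flies on sucrose and yeast extract diets, and flies with Lsp2 or Rheb expressed in the fat body by LppTS with their controls) were not analysed here. The comparison asks which transcripts of the pathway differ between young and old heads. With no age between them, early and late changes are not separated.

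In flies, Toll signalling starts outside the cell. Recognition proteins in the hemolymph bind microbial cell walls and set off a chain of serine proteases, which ends when Spaetzle-processing enzyme (SPE) cuts the precursor of Spaetzle (spz). Cut Spaetzle binds the receptor Toll (Tl), which gathers the adaptors Myd88 and Tube (tub) and the kinase Pelle (pll). The inhibitor Cactus (cact) is then destroyed, and the NF-kB factors Dorsal (dl) and Dif enter the nucleus and switch on genes for antimicrobial peptides, mainly in the fat body, the fly's counterpart of liver and adipose tissue. Much of the same cascade, from Spaetzle to Dorsal, also sets up the dorsal-ventral axis of the embryo.

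The values are read as FPKM, a count of fragments divided by gene length and by library size, and their sums were 427992 to 502587 in the 3-day and 504504 to 539645 in the 50-day libraries. Sequencing depth is unknown, so the error of a value is the spread of its 3 replicates. Heads were pooled and the labels name triplicates without saying how the cohorts were reared, so p-values measure the spread between these pools. Markers fitted the head label: 8 photoreceptor genes summed to between 18494 and 27156 FPKM in every library, while the 5 listed ovary markers summed to at most 0.307 FPKM. Over all genes tested in the same fit as the members, 18.3% were higher and 20.8% lower at 50 days. In that fit 5 of 8 fat body markers were higher and none lower. By contrast 8 of 10 neuronal and 6 of 8 muscle markers were lower, with none higher. Photoreceptor markers gave 4 of 8 lower and none higher, and glial markers 2 of 7 higher and 3 lower. Of 10 tested hemocyte (blood cell) markers, 1 was higher and 3 were lower. In such bulk samples fewer cells of a type and less RNA per cell cannot be told apart.

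Of the 10 core transcripts, 7 rose and 1 fell at 50 days, and cact and dl did not pass the test. The test was limma on log2(FPKM + 1) after a scaling factor per library, with Benjamini-Hochberg adjustment over 8742 genes and a threshold of 0.05. Over all tested genes 39.1% were called, 18.3% higher and 20.8% lower, with a median log2 change of -0.0011, against a median of 0.29 for the 10 members. Scaled values of the ages did not overlap for the same 8 called members, where this held for 54.3% of all genes, 26.0% higher and 28.3% lower. By estimated log2 change the secreted GNBP3 and SPE rose most, Dif and Myd88 less, and spz (also secreted), tub and pll least. The 95% intervals of Dif and Myd88 overlap those of spz, tub and pll, and differences between members were not tested. The number of members called ran from 4 to 7 when a single library was left out. Leaving out 3-day replicate 1 or 50-day replicate 2 gave 5, and leaving out 50-day replicate 3 gave 4. GNBP3, SPE, Myd88 and Dif were called in all 6 of those fits. The scaling also moved the smaller calls. With no further scaling of the deposited values 5 members were called. When all library totals were made equal, which moves the median change of all genes to -0.26, 4 were called, namely GNBP3 and SPE higher and Tl and cact lower.

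**Figure D1:**
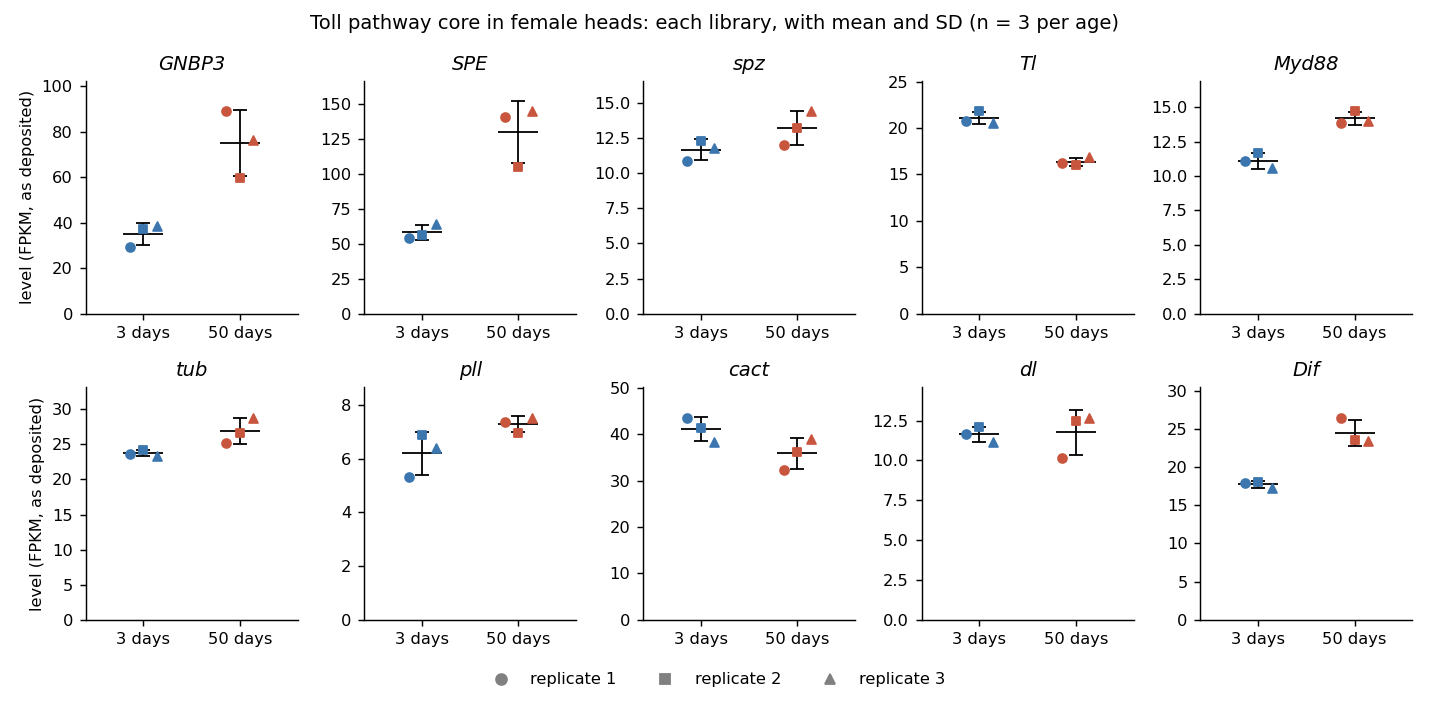
Deposited level (FPKM, linear axis from 0) of each core gene in every library, with circles, squares and triangles for replicates 1, 2 and 3, blue for 3 days and red for 50 days, and bars for mean and SD (n = 3 per age). GNBP3 and SPE lie far apart between the ages, while cact and dl do not separate.

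GNBP3 (Gram-negative bacteria binding protein 3, FBgn0040321; BDGP6.54 annotation, arm 3L, 8955021 to 8956551, plus strand) encodes a hemolymph protein that binds the beta-glucan of fungal cell walls and starts the cascade. Its levels were 29.5, 37.2 and 38.5 FPKM in the 3-day libraries and 88.9, 59.7 and 76.4 FPKM in the 50-day libraries, each in the order of replicates 1, 2 and 3 used throughout. Every 50-day library lay above every 3-day library, and 50-day replicate 2 was the lowest of its age. The mean level went from 35.03 ± 4.87 to 75.0 ± 14.7 FPKM (SD, n = 3 each), a ratio of 2.33 after scaling. Its log2 change was 1.17 (SE 0.18, limma adjusted p 0.00163) and stayed between 0.89 and 1.35 over 15 alternative fits, all of them past the threshold.

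SPE (FBgn0039102, arm 3R, 23686255 to 23688147, plus strand), the protease that cuts the Spaetzle precursor, was the most abundant member at both ages. Its levels were 53.9, 56.6 and 64.5 FPKM at 3 days and 140.6, 104.9 and 144.9 FPKM at 50 days. The ages did not overlap, and 50-day replicate 2 was again the lowest old library. The mean level rose from 58.3 ± 5.50 to 130.1 ± 22 FPKM, a ratio of 2.41 after scaling and the highest log2 change of the 10 members, 1.24 (SE 0.15, adjusted p 0.000678). All 15 alternative fits called it, with changes from 0.96 to 1.41. SPE shares 107 of its 1267 exon bases with CG18754 on the same strand. CG18754 reached at most 0.144 FPKM.

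spz (FBgn0003495, arm 3R), the gene of the ligand itself, changed little. Its levels were 10.8, 12.3 and 11.8 FPKM at 3 days and 12.0, 13.2 and 14.4 FPKM at 50 days, so the deposited values of the ages overlap and only the scaled ones separate. Its log2 change was 0.27 (SE 0.077, adjusted p 0.0260). Leaving out 3-day replicate 1 ended the call (adjusted p 0.0619), as did leaving out 50-day replicate 2 (0.0659) or 3 (0.101). So did unscaled values (change 0.17, adjusted p 0.219) and equal library totals (0.0025, adjusted p 0.990). Within each library, in a ratio chosen after the values were seen, SPE stood at 4.97, 4.60 and 5.46 times spz at 3 days and at 11.7, 7.93 and 10.1 times spz at 50 days. A ratio of this kind is free of any factor per library, and its log2 difference between the ages was 0.97. With 3 libraries against 3 the exact two-sided permutation test gave p = 0.1, the smallest it can give.

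Tl (FBgn0262473, arm 3R, 26799041 to 26842403, plus strand) encodes the receptor and was the only member called lower in the fit reported. Its levels were 20.8, 21.8 and 20.6 FPKM at 3 days and 16.3, 16.0 and 16.8 FPKM at 50 days, with narrow spreads and no overlap. Scaled means stood in a ratio of 0.840, and the log2 change was -0.24 (SE 0.073, adjusted p 0.0324). The direction held in all 15 alternative fits, from -0.51 to -0.12, but the call did not. It ended when 3-day replicate 1 or 2 was left out (adjusted p 0.0899 and 0.0972), or 50-day replicate 2 or 3 (0.126 and 0.0961). Removing the trend of each library on exon length gave -0.12 with an adjusted p of 0.245, Tl having 5198 exon bases.

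Downstream of the receptor, Myd88 (FBgn0033402), the adaptor that carries a TIR domain and a death domain, rose. Its levels were 11.1, 11.6 and 10.5 FPKM at 3 days and 13.9, 14.7 and 14 FPKM at 50 days, without overlap. The ratio of scaled means was 1.38 and the log2 change 0.43 (SE 0.074, adjusted p 0.00304). Making library totals equal was the 1 alternative of 15 that ended the call (0.16, adjusted p 0.334).

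tub (FBgn0003882, arm 3R), the death-domain adaptor that links Myd88 to Pelle, was at 23.7, 24.2 and 23.4 FPKM at 3 days and at 25.2, 26.5 and 28.8 FPKM at 50 days. All old libraries were above all young ones, by a small margin. The log2 change of 0.27 (SE 0.070, adjusted p 0.0157) was not past the threshold without 3-day replicate 2 (0.0503) or 50-day replicate 3 (0.0681), nor with unscaled values (0.17, adjusted p 0.160). Its direction turned with equal library totals, to -0.0008 (adjusted p 0.996).

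pll (FBgn0010441, arm 3R), a kinase related to mammalian IRAK, was the least abundant member. Levels of 5.32, 6.88 and 6.38 FPKM at 3 days stood against 7.36, 6.96 and 7.53 FPKM at 50 days. 3-day replicate 2 and 50-day replicate 2 nearly touched. The log2 change was 0.30 (SE 0.10, adjusted p 0.0457), close to the threshold. Of the 6 fits with a library left out, only that without 3-day replicate 2 kept the call (0.0478). The others gave 0.103 and 0.0540 for 3-day replicates 1 and 3, and 0.139, 0.0649 and 0.105 for the 50-day replicates in order. Keeping genes of any level also ended it (0.0756), as did unscaled values (0.165) and equal library totals (0.766).

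**Figure D2:**
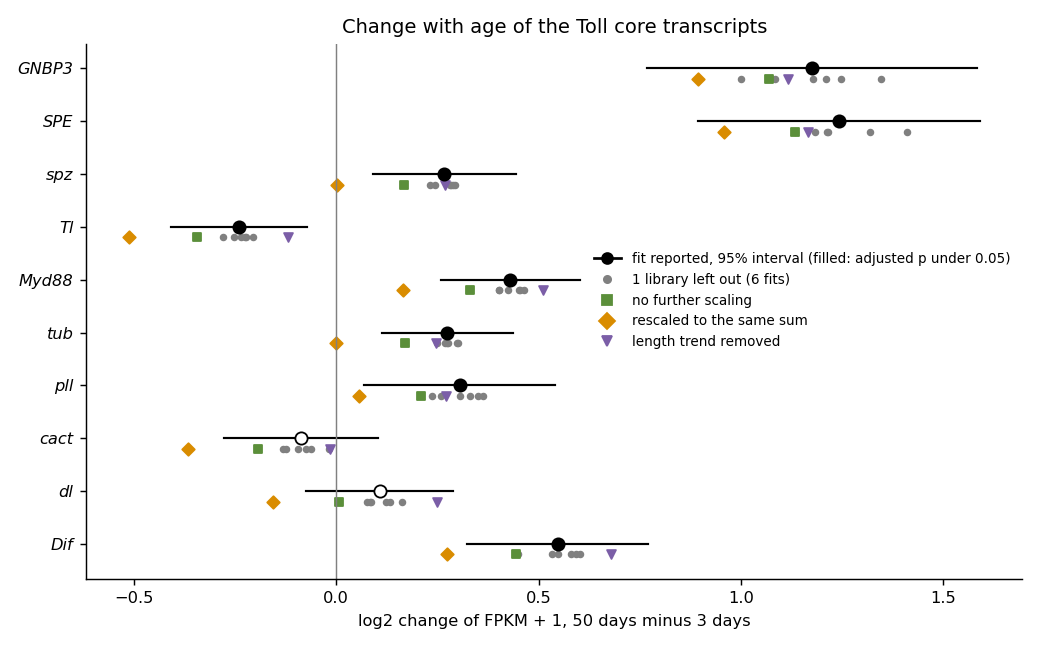
Log2 change of FPKM + 1 (50 days minus 3 days) for each core gene, with the 95% interval of the fit reported as a line (filled circle: adjusted p under 0.05) and, just below it, the 6 fits without 1 library (grey) and 3 other ways of scaling or correcting the libraries. GNBP3 and SPE stay near or above 0.89 throughout, while tub and spz reach 0 with equal library totals.

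Of the factors at the end of the cascade, Dif passed the test and dl did not. Dif (FBgn0011274, arm 2L, 17413248 to 17433161, minus strand), known as the factor that adult flies need for antifungal defence, rose. Its levels were 17.9, 18.04 and 17.3 FPKM at 3 days and 26.5, 23.6 and 23.4 FPKM at 50 days. The young libraries lay within 1 FPKM of each other and all old ones were above them. The ratio of scaled means was 1.5 and the log2 change 0.55 (SE 0.097, adjusted p 0.00337). Making library totals equal ended the call (0.27, adjusted p 0.0950), and the other 14 alternatives kept it. CG15141, on the opposite strand, shares 252 of the 5695 exon bases of Dif, and the handling of strand is not given in the sources used here. CG15141 itself was not called (log2 change -0.20, adjusted p 0.166).

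dl (FBgn0260632, arm 2L, 17436830 to 17450364, minus strand) lies 3668 bases from Dif on the same strand, and encodes Dorsal, the factor named for its part in the embryo. It was at 11.6, 12.1 and 11.2 FPKM at 3 days and at 10.1, 12.5 and 12.7 FPKM at 50 days. The lowest and the highest values both came from old libraries. Its log2 change was 0.11 (SE 0.079, 95% interval -0.074 to 0.29, adjusted p 0.310). The direction turned with equal library totals (-0.16, adjusted p 0.402), and with the length trend removed dl passed the threshold (0.25, adjusted p 0.0261). Dif was 1.54, 1.49 and 1.54 times dl in the 3-day libraries and 2.61, 1.89 and 1.85 times dl in the 50-day libraries. These ratios, chosen after the values were seen, did not overlap between the ages (log2 difference 0.46, exact two-sided permutation p = 0.1, the smallest possible). Without 50-day replicate 1, where Dif was highest and dl lowest, the difference was 0.30.

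cact (FBgn0000250, arm 2L), the inhibitor that holds Dorsal and Dif in the cytoplasm and is itself known as a Toll target, was the second most abundant member at 3 days. Its levels were 43.6, 41.4 and 38.4 FPKM at 3 days and 32.4, 36.2 and 39.1 FPKM at 50 days, which overlap. The log2 change was -0.087 (SE 0.082, 95% interval -0.28 to 0.10, adjusted p 0.433), an interval that leaves out a rise of the size seen for Dif. It was called lower only with equal library totals (-0.37, adjusted p 0.0488). Set against the factors it binds, cact was 1.48, 1.37 and 1.35 times dl and Dif together at 3 days and 0.885, 1.004 and 1.08 times them at 50 days. The mean ratio was 1.40 ± 0.068 in young and 0.990 ± 0.099 in old heads, with no overlap and a log2 difference of -0.50. The exact two-sided permutation p was 0.1, the smallest that 3 against 3 allows, and the difference ran from -0.57 to -0.42 when a library was left out. The ratio of Tl to Dif, chosen after the values were seen, did not overlap between the ages either, at 1.16, 1.21 and 1.19 in young and 0.615, 0.679 and 0.719 in old libraries (exact permutation p = 0.1).

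**Figure D3:**
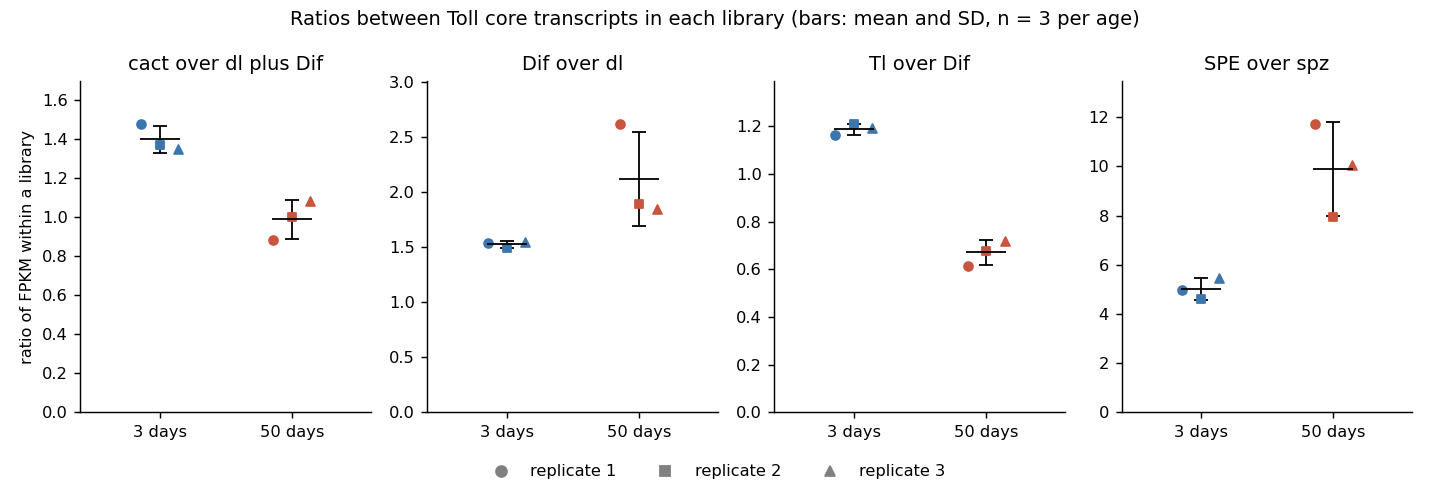
Ratios of FPKM within each library (linear axes from 0; circles, squares and triangles for replicates 1, 2 and 3; bars for mean and SD, n = 3 per age). In all 4 panels the ages are apart: the ratio of cact to dl plus Dif is at least 1.35 in young and at most 1.08 in old heads.

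The order of the members by level, which per-length values allow, was SPE, cact, GNBP3, tub, Tl, Dif, dl, spz, Myd88 and pll at 3 days. Neighbours in that order were apart in all 3 libraries except cact and GNBP3, dl and spz, and spz and Myd88, whose ranges overlapped. At 50 days the order was SPE, GNBP3, cact, tub, Dif, Tl, Myd88, spz, dl and pll, and the ranges of tub and Dif, Myd88 and spz, and spz and dl overlapped. GNBP3 thus stood above cact and Dif above Tl in all old libraries, while Tl stood above Dif in all young ones. Within the 8742 tested genes, the members reached from the percentile 27.1 by mean level for pll to the percentile 91.2 for SPE.

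The genes around the core were taken from 7 lists drawn from textbook knowledge, 60 symbols in all. Of these, 58 were in the table and 47 were tested. The remaining 11 listed genes were below a mean of 1 FPKM. Among the 47 tested genes, 27 were higher and 5 lower at 50 days, with a median log2 change of 0.52, and the lists differ from each other in direction. Effector peptides alone gave 13 of the 27. The background for the counts of each list below is 18.3% higher and 20.8% lower over all tested genes. Of the 3 other recognition genes, PGRP-SD (log2 change 3.07) and PGRP-SA (1.75) changed by more than GNBP1 (0.50). All 3 were called higher in the fit reported, and PGRP-SA and PGRP-SD, which sense bacterial peptidoglycan, kept the call in all 15 alternatives.

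PGRP-SD had 6.78, 8.07 and 6.04 FPKM at 3 days and 67.4, 51.3 and 65.5 FPKM at 50 days, which is 3.07 on the log2 scale (SE 0.14, adjusted p 2.51e-05 by limma). PGRP-SA had 5.68, 7.37 and 9.81 FPKM in young and 34.1, 20.1 and 24.4 FPKM in old heads, which is 1.75 on the log2 scale (SE 0.24, adjusted p 0.00106). Both were well apart between the ages. GNBP1, the partner of PGRP-SA, rose by less, from 12.07 ± 0.658 to 16.2 ± 0.687 FPKM (log2 change 0.50, adjusted p 0.00323). Its call was lost with equal library totals (0.23, adjusted p 0.1397).

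Of 6 tested proteases between recognition and Spaetzle, 5 rose and none fell. Hayan, a protease of the branch that answers microbial proteases and wounds, had the largest change of the list, from 5.38 ± 1.01 to 13.6 ± 1.57 FPKM (log2 change 1.29, adjusted p 0.000384). psh, the protease that senses such danger signals, went from 21.5 ± 1.86 to 31.1 ± 3.70 FPKM (0.61, adjusted p 0.00697). modSP, which joins recognition to the rest of the chain, went from 17.8 ± 0.577 to 26.8 ± 1.38 FPKM (0.67, adjusted p 0.00088). spirit changed by 0.72 (adjusted p 0.00729). These 4 calls held in all 15 alternatives.

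grass, the protease just below modSP, was not called, at 14.1, 15.3 and 14.03 FPKM in young and 8.53, 11.6 and 13.6 FPKM in old heads (log2 change -0.26, adjusted p 0.127). It was called lower when 50-day replicate 3 was left out (-0.37, adjusted p 0.0395) and with equal library totals (-0.52, adjusted p 0.0219), while without 50-day replicate 1 its change was -0.13 (adjusted p 0.339). ea, the protease that cuts Spaetzle in the embryo, passed narrowly (0.34, adjusted p 0.0407). It did not pass without 3-day replicates 1 or 2 (0.103 and 0.0770) or 50-day replicates 2 or 3 (0.136 and 0.110), and 4 of the 9 other alternatives kept it. The embryonic proteases snk, gd and ndl were at or under 0.193 FPKM in every library.

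Serpins, the suicide inhibitors of such proteases, were also mostly higher, with 3 of 4 up and 1 down. nec, which restrains the adult cascade, went from 83.0 ± 14.5 to 142.1 ± 17.6 FPKM (log2 change 0.88, adjusted p 0.00385), and Spn42Dd from 42.4 ± 1.91 to 86.5 ± 5.03 FPKM (1.12, adjusted p 0.000174). Spn27A changed by 0.54 (adjusted p 0.00114), a call lost with equal library totals (0.27, adjusted p 0.111). Spn88Ea was lower (-0.44, adjusted p 0.0396). Leaving out 3-day replicate 2 or 3 (0.0716 and 0.0870) or 50-day replicate 1 or 2 (0.119 and 0.0792) ended that call, and 8 of the 9 other alternatives kept it.

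Of the 8 fat body markers 5 were called higher and 3 were not called, beside 18.3% called higher over all tested genes. The 8 markers summed to 865.9 to 962.4 FPKM in the 3-day and 2007 to 2572 FPKM in the 50-day libraries. apolpp, the lipoprotein precursor made by fat body, gave most of that rise, at 326.1 ± 10.2 FPKM in young and 1269 ± 339 FPKM in old heads (log2 change 2.03, adjusted p 0.000377). Lsp2, a storage protein secreted by fat body, was at 6.70 ± 1.87 and 508 ± 178.7 FPKM (6.12, adjusted p 1.37e-05). Mtp had a log2 change of 1.26 and AkhR of 1.14, while Fbp1 (1.12), FASN1 (-0.20) and to (-0.15) were not called. None of the 8 was listed at 0 throughout. Of the hemocyte markers, srp, a GATA factor that fat body also expresses, was the 1 called higher (1.46), and Pxn (-0.76), PPO1 (-1.22) and PPO2 (-1.50) were lower. The 11 hemocyte markers summed to 158 to 201 FPKM in young and 141 to 166 FPKM in old libraries. The part of either cell type in the changes of GNBP3, SPE, recognition genes, proteases and serpins was not tested.

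**Figure D4:**
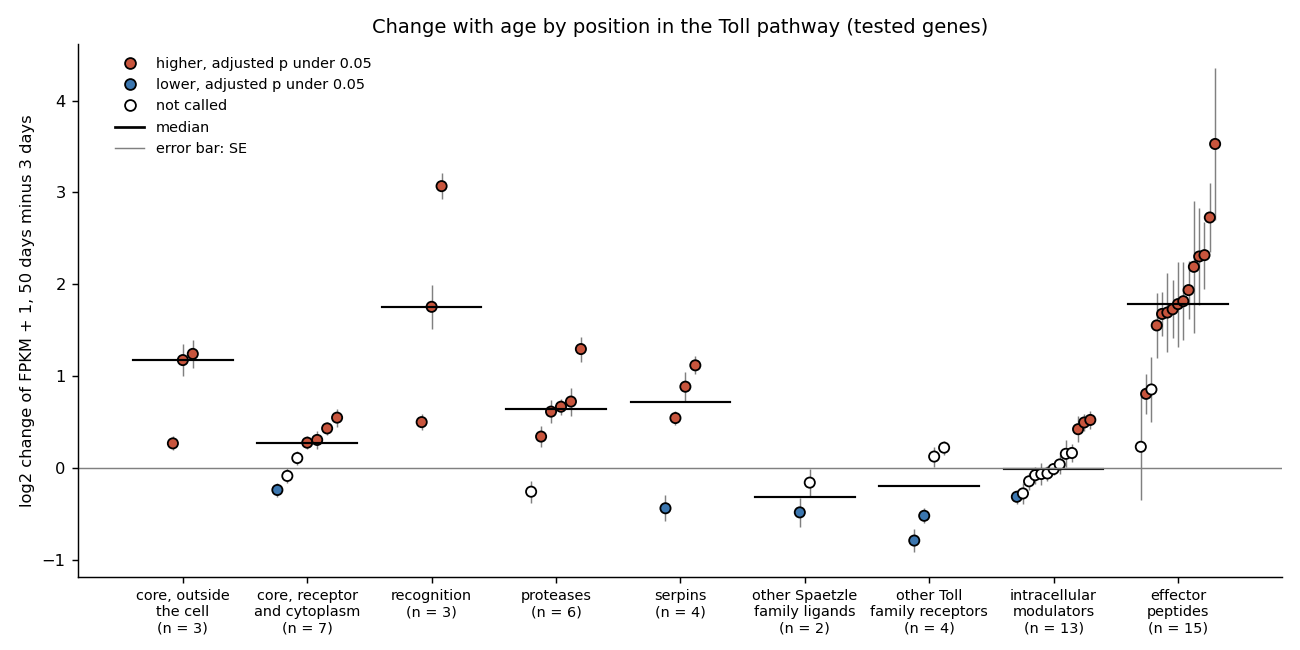
Log2 change of FPKM + 1 (50 days minus 3 days; error bars SE, black line median) of every tested gene by position in the pathway, with red for called higher, blue for called lower and white for not called. Secreted genes upstream of Toll and effector peptides lie mainly above 0. Of the other Toll (4 tested) and Spaetzle family (2 tested) genes 3 were called lower and none higher.

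None of the tested relatives of the ligand (2 genes) and of the receptor (4 genes) passed the test as higher. Over all tested genes 18.3% did, and so few genes cannot show a departure from that share. Of the other Spaetzle family genes only spz3 and spz5 were tested, and spz5 was not called (log2 change -0.16, adjusted p 0.405). spz3 was lower, from 3.43 ± 0.816 to 1.97 ± 0.062 FPKM (log2 change -0.48, adjusted p 0.0389), but kept the call among the fits with a library left out only without 3-day replicate 2. Leaving out 3-day replicates 1 and 3 gave 0.134 and 0.0920, and leaving out 50-day replicates 1, 2 and 3 gave 0.0737, 0.101 and 0.0865. Of 8 other alternatives 6 kept the call. NT1, another ligand of the family, reached at most 0.265 FPKM.

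Of the other Toll receptors, Toll-7 fell, at 6.77 ± 0.910 FPKM in young and 3.25 ± 0.688 FPKM in old heads (log2 change -0.79, adjusted p 0.00239), and Toll-6 from 6.55 ± 0.198 to 3.95 ± 0.248 FPKM (-0.52, adjusted p 0.00181). Both are known for roles in the nervous system, and both falls held in every alternative that tested them. 18w was not called (0.22, adjusted p 0.0544), and its direction turned with equal library totals (-0.045). It passed with median-of-ratios factors (0.0435), a minimum mean of 5 FPKM (0.0486) and the length trend removed (0.00775). Tollo was not called (0.12, adjusted p 0.399), and Toll-9 reached at most 0.089 FPKM. The 10 neuronal markers summed to 841.8 to 931.4 FPKM in young and 536.7 to 632.8 FPKM in old libraries. Their part in the falls of Toll-6, Toll-7 and Tl was not tested.

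Among 13 intracellular modulators, 3 rose and 1 fell, beside 18.3% higher and 20.8% lower over all tested genes. So few genes cannot show a departure from those shares. Hrs, an endosomal protein that Toll signalling uses, changed by 0.52 (adjusted p 0.00504) and cactin, a partner of Cactus, by 0.49 (adjusted p 0.00529). Both calls were lost with equal library totals (adjusted p 0.213 and 0.195). wek, an adaptor at the receptor, changed by 0.42 (adjusted p 0.0429) and was past the threshold without 50-day replicate 3 (0.0269) but in no other fit with a library left out. Those gave 0.0611, 0.0902 and 0.103 for 3-day replicates 1, 2 and 3 and 0.102 and 0.0681 for 50-day replicates 1 and 2, and 5 of the 9 other alternatives kept the call. Deaf1, a cofactor at peptide genes, fell from 16.0 ± 0.776 to 11.7 ± 0.810 FPKM (-0.31, adjusted p 0.0133). It narrowly missed the threshold when 3-day replicate 1 (0.0552) or 50-day replicate 3 (0.0562) was left out. Pli, Traf6 and Gprk2 were not called, with changes of -0.15, -0.060 and -0.066 and adjusted p of 0.236, 0.576 and 0.697. Gprk2 turned direction under the length correction, and Pli was called lower with equal library totals (-0.43, adjusted p 0.0178).

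At the far end of the pathway stand the effector peptides. Of 15 tested genes 13 rose and none fell, with a median log2 change of 1.78. The median of the 3 recognition genes, 1.75, is the value of PGRP-SA, and they ran from 0.50 to 3.07. Drs (Drosomycin, the antifungal peptide that serves as the classic readout of Toll) had 21.5, 76.5 and 31.5 FPKM at 3 days and 1032, 102.8 and 649.9 FPKM at 50 days. Its log2 change was 3.53 (SE 0.83, adjusted p 0.0111), with 50-day replicate 2 not far above 3-day replicate 2. Dso1 (Daisho 1) had 162.8, 390.6 and 287 FPKM in young and 2263, 1065 and 1774 FPKM in old heads (2.73, adjusted p 0.0011). BomS6, of the Bomanin family of short peptides, had 429.1, 738.5 and 1008 FPKM in young and 4521, 2301 and 3043 FPKM in old heads (2.32, adjusted p 0.00206).

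BomS1 was at 328.2 ± 94.1 FPKM in young and 1074 ± 610.7 FPKM in old heads (log2 change 1.69, adjusted p 0.0158), but its adjusted p was 0.0562 without 3-day replicate 1. The smallest called rises were those of BomT3 (0.81, adjusted p 0.0195), BomS2 (1.55, adjusted p 0.0103) and BomT1 (1.68, adjusted p 0.00135). BomT3 did not pass without 3-day replicates 1 or 2 (0.0594 and 0.0592) or 50-day replicates 1 or 3 (0.0524 and 0.0544). The 2 tested effectors without a call were BomS3 and BaraA1. BomS3 passed when 50-day replicate 2 was left out (1.27, adjusted p 0.00853). BaraA1 passed without 3-day replicate 2 (1.004, adjusted p 0.0183), where it stood at 17.7 FPKM against 2.32 and 2.94 FPKM in the other young libraries. BaraA1 and BaraA2 are near-identical copies, and BaraA2 was listed at 0 in every library, so the value of BaraA1 is uncertain. Bomanin genes are likewise related to each other, and the split of reads between them is uncertain.

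**Figure D5:**
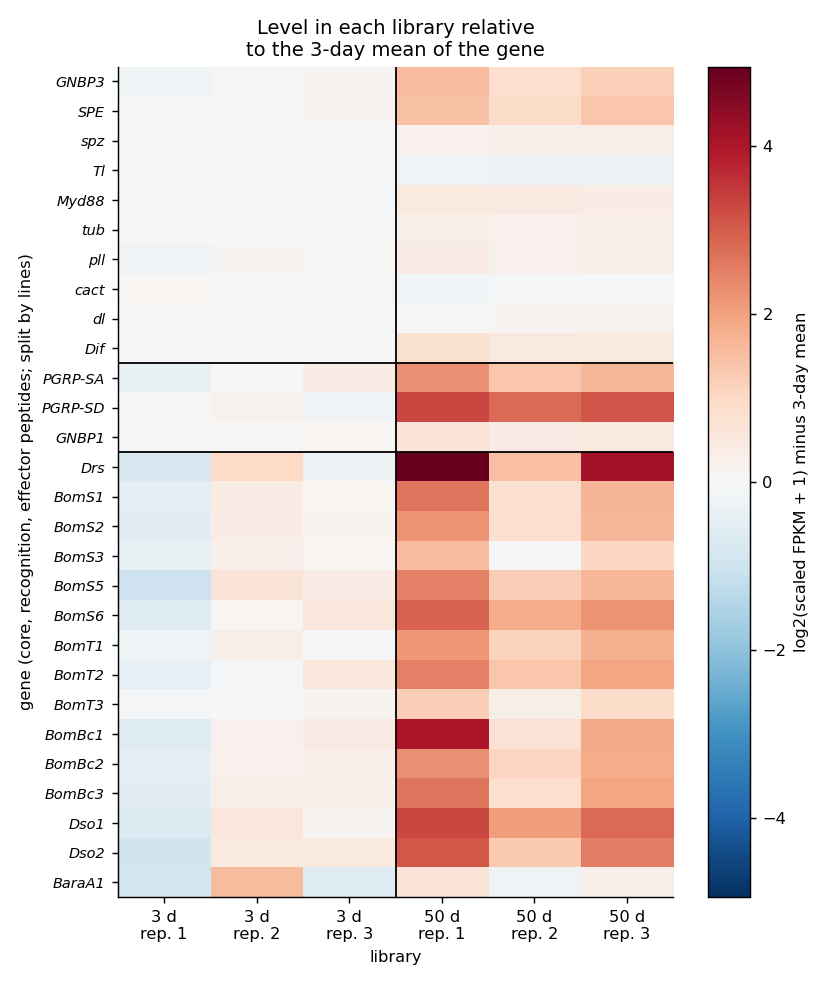
Level of each core, recognition and effector gene in every library as log2(scaled FPKM + 1) minus the mean of the gene's 3-day libraries, on a colour scale centred on 0, with lines between the 3 groups of genes and between the ages. The column of 50-day replicate 2 is the palest of the old libraries for all 15 effectors.

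50-day replicate 2 had the lowest scaled level of the old libraries for 15 of 15 effectors and 3 of 3 recognition genes, and for 5 of the 10 core members. Over all tested genes this was so for 2586 of 8742. The median effector lay 2.51, 1.07 and 1.85 above its 3-day mean (log2 scale) in 50-day replicates 1, 2 and 3. For the 3 core genes that act outside the cell (GNBP3, SPE and spz) the medians were 1.46, 0.83 and 1.17. For the 7 from the receptor to the nucleus they were 0.28, 0.21 and 0.30. The medians of effectors and of the secreted core thus ranked the old libraries alike, while those of the other members lay close together. Recognition genes (2.24, 1.38 and 1.64), proteases (0.80, 0.49 and 0.55) and serpins (0.81, 0.59 and 0.75) also had their highest median in 50-day replicate 1 and their lowest in replicate 2. Each secreted-core median is a value of GNBP3 or SPE, and spz had another order (0.23, 0.24 and 0.34). Among the other members, Tl, tub and pll were also lowest in 50-day replicate 2. The medians of the 8 fat body markers, 1.54, 0.75 and 0.90, had the same order, but 50-day replicate 2 was lowest for only 2 of them. Lsp2 was highest there, at 711.9 FPKM against 379.2 and 432.7 FPKM in 50-day replicates 1 and 3. The part of fat body in the spread of the old libraries was not tested. Without 50-day replicate 2 the count of effectors called was 14, against 13 with all libraries. Without 3-day replicate 1 or 50-day replicate 1 it was 10.

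The Imd pathway, the fly's other NF-kB route to antimicrobial peptides, gave 6 of 10 genes higher and none lower from receptor to factor in the same fit. Over all tested genes 18.3% were higher and 20.8% lower. The Imd factor Rel changed by 0.98 (SE 0.17, adjusted p 0.0028), from 23.0 ± 2.43 to 43.8 ± 11.1 FPKM, and the receptor PGRP-LC by 0.77 (adjusted p 0.000635). The difference between the pathways was not tested.

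The transcripts whose profiles over the 6 libraries were most like that of SPE, by root mean square distance of gene-centred log2 levels among the 7055 genes averaging 5 FPKM or more, were NimB5 (distance 0.094), CREG (0.099) and LManI (0.10). Those most like Tl were mRpL4 (0.020), CG17486 (0.026) and mEFTu1 (0.026).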

How the data were processed

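The authors deposited a table with a value per gene and library. Although named as counts, the values are fractional and run down to 1.696e-11, so the deposited values are read as FPKM. TPM cannot be told apart from FPKM here, and the factor per library between them is removed by scaling. Per the submitters' processing notes, fastp, HISAT2, HTSeq and the build BDGP6 were used, with no roles given. The step that made fractional values, the strand setting and the treatment of reads shared between genes are not given in the sources used here. All 6 columns were matched to samples by library name.

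Libraries were scaled by trimmed-mean factors (30% of ratios and 5% of levels trimmed at each end). The factors were 0.948 to 0.972 at 3 days and 1.002 to 1.11 at 50 days, so scaling raised old against young values. Without it the median log2 change of all tested genes was -0.098. Genes averaging 1 FPKM or more were fitted as log2(FPKM + 1) with limma 3.58.1 in R 4.3.3 (eBayes with trend, age only). Log2 changes understate those of genes near 1 FPKM. Levels and SD in the text are as deposited, and ratios of means are scaled. Members, lists and tests were chosen with earlier results of these data known. The text names all members, all called genes of a list with at most 6 calls (otherwise the 3 highest and 3 lowest), and 16 fixed genes. Marker and Imd genes, list genes without a call outside that rule (such as snk, gd, ndl, BomS3 and BaraA1) and all ratios but that of cact were singled out after their values were seen. The 15 alternatives changed the scaling, the filter, the pseudocount, the variance trend, the replicate block, a length correction, or left out a library. Symbols were matched to BDGP6.54 (10896 directly, 986 by synonym, 41 not). sphinx1 and sphinx2 were not analysed here. Sequences of promoters and proteins were planned and not used here. On simulated data, 84 of 96 tested genes with a log2 change of 1 were recovered, 44 of 100 with 0.5, and 7 unchanged genes were called. The simulation gave each gene independent noise and changed 200 genes, evenly up and down. It held no genes varying together between libraries of an age, and fewer changed genes than the 3418 called here. Its rates therefore need not hold for these data.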

Additional observations from a re-analysis of the deposited data

How the results depend on the processing

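The number of genes called, 3418, stayed within 1.5 times of that under all 15 alternatives (2619 to 3859), and the count over the 7 wider lists, 32, ran from 25 to 33. The balance of directions over all genes moved with scaling: 46.9% of called genes were higher as reported, 33.4% with unscaled values and 19.02% with equal library totals. Members called numbered 5 with unscaled values, 4 with equal library totals, 4 with the replicate block, and 4 to 7 with a library left out. Unscaled values ended the calls of spz (0.17), tub (0.17) and pll (0.21). Equal library totals ended those of spz (0.0025), Myd88 (0.16), pll (0.056) and Dif (0.27), added cact (-0.37), and reversed tub (-0.0008), dl (-0.16), 18w (-0.045) and BaraA1 (-0.011). With the length trend removed Tl was lost (-0.12), dl gained (0.25) and Gprk2 reversed (0.043). No filter on low values lost pll (0.30). The causes were not tested.

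Left-out libraries gave ranges of 0.23 to 0.29 for spz, -0.28 to -0.21 for Tl, 0.25 to 0.30 for tub and 0.24 to 0.36 for pll. Gprk2 ranged from -0.189 to 0.0098, the latter when 3-day replicate 1 or 50-day replicate 3 was left out, and BaraA1 was at -0.20, 1.004 and -0.098 when 3-day replicates 1, 2 and 3 were left out. The replicate block left spz (0.27), Tl (-0.24), tub (0.27) and pll (0.30) past no threshold and called 2703 genes. The labels do not say that replicate numbers pair samples of the 2 ages. Deviations of same-numbered libraries from their age means had correlations of -0.21, -0.10 and -0.24. With 3 libraries per age such values cannot show whether samples were handled in pairs. Unknown depth limits what can be said of genes under 1 FPKM.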
